A study of Mus musculus with 2 samples.

Results

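The membrane skeleton is the protein mesh under the red cell membrane. Alpha and beta spectrin pair into long flexible rods. Ankyrin ties beta spectrin to the anion exchanger band 3, and protein 4.1R, adducin and dematin hold the rod ends to short actin filaments at the junctions of the mesh. The mesh gives red cells the strength and elasticity to pass through capillaries, and inherited loss of its parts is known to cause spherocytosis and elliptocytosis. Most of these proteins also have forms made outside the red cell lineage, from related genes or from alternative starts and exons of the same gene. Here 9 genes of the mesh are described out of 43346 Ensembl genes in the tables. They were chosen by name, with earlier results of these data known. Among them are the spectrins Sptb, Sptan1 and Sptbn1, the ankyrins Ank1 and Ank3, and the protein 4.1R gene Epb41. The others are the adducins Add1 and Add2 and the dematin gene Dmtn. All 9 were found by symbol.

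The study sequenced total RNA from 2 replicates of 1 group. The cells were G1E-ER4, an immortalised erythroid line on a C57BL/6J background, labelled male and postnatal. The parental line lacks Gata1, the gene of a main erythroid transcription factor, and G1E-ER4 carries a form of GATA1 that works when estradiol is bound. Estradiol (17beta-estradiol, 10 nM) had been present in both cultures for 24 h, and each library was made from 100 ng of RNA depleted of ribosomal RNA. No untreated culture is part of the comparison, so the values describe one state of the cells and no effect of estradiol was measured. An exact sign-flip test (both sides) over 2 replicates cannot give a p under 0.5, so values carry their spread and no p. In bulk RNA of this kind, fewer cells of a type and less RNA per cell cannot be told apart.

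Replicate 1 held 62080996 expected counts on Ensembl genes and replicate 2 held 41051158. The deeper library had counts on fewer genes, 16115 against 19353. The replicates were not copies of each other: over 12223 genes with a mean count of 10 or more, their counts differed by a chi-square of 75.8 per degree of freedom. Levels are in TPM, a unit that divides counts by transcript length and scales each library to the same sum. Nuclear protein-coding genes held 14.1% of all TPM in replicate 1 and 14.4% in replicate 2, so a TPM here is small beside one from messenger RNA alone. All 6 erythroid markers looked up (Gata1, Klf1, Tfrc, Alas2, Hba-a2, Hbb-bs) were at 27.6 TPM or more in both replicates. Gata1 itself read 60.1 and 73.2 TPM, and gene counts do not separate the introduced form from the cell's own gene. None of the 8 myeloid, 6 stromal or endothelial and 4 epithelial markers reached 1 TPM in both. Of 6 megakaryocyte and platelet markers, 2 did, Itga2b (2.04 and 1.70 TPM) and Gp1ba (1.84 and 1.44 TPM), and of 6 neuronal or muscle markers, 1 did, Tubb3 (5.86 and 4.03 TPM).

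Several results below turn on stretches that a transcript either holds or leaves out, so these are shown first. They were read from GENCODE M21 transcripts (build GRCm38) on the strand of the gene. Capitals mark the alternative exon, and the lower case bases on each side are the ends of the neighbouring exons in the transcript read. The first 3 are neighbouring exons of Epb41 on chromosome 4, minus strand, of 57, 42 and 63 bases, known as exons 14, 15 and 16. The 63-base exon is known to code for part of the region that binds spectrin and actin.
Epb41 57-base exon, chr4:131964131-131964187: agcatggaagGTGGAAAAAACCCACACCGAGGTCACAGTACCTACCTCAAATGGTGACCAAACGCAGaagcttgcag
Epb41 42-base exon, chr4:131963929-131963970: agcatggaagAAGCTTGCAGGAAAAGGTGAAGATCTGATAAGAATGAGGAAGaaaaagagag
Epb41 63-base exon, chr4:131962924-131962986: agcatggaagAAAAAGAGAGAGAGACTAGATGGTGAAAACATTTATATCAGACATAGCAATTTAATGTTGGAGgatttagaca
The next is the junction in transcript Epb41-215 that passes over all 3. Lower case is the end of the exon before them, and capitals are the start of the exon after them.
Epb41-215 junction: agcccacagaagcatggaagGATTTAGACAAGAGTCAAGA
The 17 bases at the 5′ end of a coding exon of Epb41 hold the upstream start codon, shown in capitals, and can be left out by use of a later splice acceptor.
Epb41 17-base segment, chr4:132007422-132007438: gaacatcATGacaacag
The last 4 are coding exons of the other members, on the plus strand. The 37-base exon of Add1 is the one whose length is not a multiple of 3.
Ank1 24-base exon, chr8:23110347-23110370: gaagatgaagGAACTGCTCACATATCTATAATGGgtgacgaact
Sptan1 60-base exon, chr2:30001100-30001159: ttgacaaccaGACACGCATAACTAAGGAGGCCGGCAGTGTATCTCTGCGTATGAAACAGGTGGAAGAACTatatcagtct
Sptan1 15-base exon, chr2:30014158-30014172: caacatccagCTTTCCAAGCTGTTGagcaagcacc
Add1 37-base exon, chr5:34629136-34629172: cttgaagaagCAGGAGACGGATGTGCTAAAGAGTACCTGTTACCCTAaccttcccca

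Of the 9 genes, 8 were at 1 TPM or more in both replicates, and the exception was Ank3. Over all 21461 nuclear protein-coding genes the share at that level was 36.3%. The 2 most abundant members were Add1 and Sptb, with 1.34% and 1.51% of protein-coding genes above them. The 8 expressed members spanned from 4.02 to 76.3 TPM in mean level, beside a median of 6.44 TPM in replicate 1 and 6.38 TPM in replicate 2 for the 7781 protein-coding genes that reached 1 TPM in both.

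**Figure D1:**
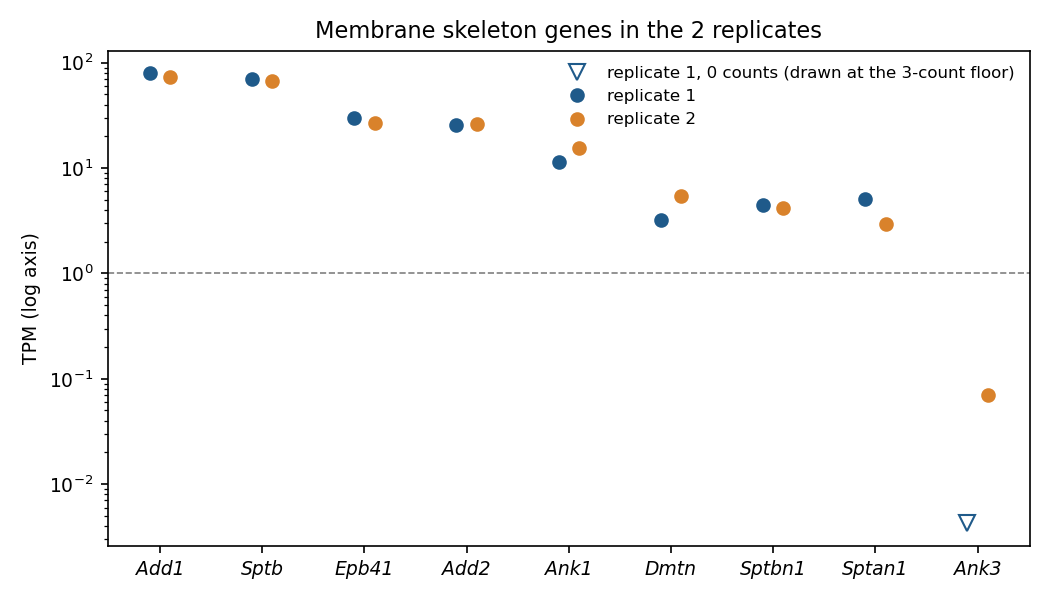
TPM of each member on a log axis, one point per replicate, with the dashed line at 1 TPM and genes ordered by mean. Add1 and Sptb lead at 67.4 to 79.5 TPM, Dmtn, Sptbn1 and Sptan1 overlap at 2.92 to 5.44 TPM, and Ank3 is far below the line, with replicate 1 drawn at the level that 3 counts would give at the effective length listed for that library.

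Sptb codes for beta I spectrin, the beta chain of the red cell mesh, and lies on the minus strand of chromosome 12 (76580488 to 76710547). It stood at 69.6 TPM in replicate 1 and 67.4 TPM in replicate 2, with 116921 and 78279 expected counts, for a mean of 68.5 ± 1.53 TPM (SD, n = 2). Sptbn1, on chromosome 11 (30099395 to 30268175), codes for beta II spectrin, the beta chain of most other cells. Its TPM was 4.43 in replicate 1 and 4.22 in replicate 2 (mean 4.33 ± 0.149, SD, n = 2). Both replicates put Sptb about an order of magnitude over Sptbn1, 15.7-fold in replicate 1 and 15.98-fold in replicate 2.

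Sptan1, on chromosome 2 (29965560 to 30031451), codes for alpha II spectrin, the widely expressed alpha chain. It was at 5.12 TPM in replicate 1 and 2.92 TPM in replicate 2 (mean 4.02 ± 1.56, SD, n = 2) and was lower in replicate 2. Sptb exceeded it 13.6-fold in replicate 1 and 23.1-fold in replicate 2.

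Ank1, on chromosome 8 (22974844 to 23150497), codes for the red cell ankyrin. It stood at 11.5 TPM in replicate 1 and 15.6 TPM in replicate 2 (mean 13.5 ± 2.93, SD, n = 2). Ank2, the ankyrin known from heart and brain, was at 4.34 and 4.62 TPM, below Ank1 2.64-fold in replicate 1 and 3.38-fold in replicate 2. Ank3, on chromosome 10 (69398773 to 70027438), codes for the ankyrin of neurons and epithelia. It had 0 expected counts in replicate 1 and 8 in replicate 2, and 47.4% of protein-coding genes were above its mean. Ank1 was above Ank3 in both replicates, by an amount these counts do not fix. The mean level of Ank3 was 0.035 TPM in the main table values and 0.25 TPM in the posterior mean TPM. The mean log2 ratio of Ank1 over Ank3 was 9.57, with Ank3 in replicate 1 taken at a floor of 3 counts, and 5.82 in posterior mean TPM. The floor covers counting error only, and it depends on the effective length used: 3 counts gave 0.00426 TPM in replicate 1 and 0.0274 TPM in replicate 2. The low counts of Ank3 fell in the same library as most low counts of the myeloid markers: summed over the 8 markers, those stood at 0.15 TPM in replicate 1 and 1.57 TPM in replicate 2, with Ctsg, Lyz2 and Itgam at 0 counts in replicate 1. Their part in the 8 counts of Ank3 was not tested.

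Epb41, on chromosome 4 (131923413 to 132075321), codes for protein 4.1R, which strengthens the bond of spectrin to actin. It was at 29.6 TPM in replicate 1 and 26.8 TPM in replicate 2 (mean 28.2 ± 2.00, SD, n = 2). Of its relatives, Epb41l5 was at 3.35 and 2.72 TPM, 8.83-fold and 9.84-fold below Epb41. The 3 others compared, Epb41l1, Epb41l2 and Epb41l3, had at most 12 expected counts in either library.

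The adducins cap the fast-growing ends of the junctional actin filaments and recruit spectrin to them. Add1, on chromosome 5 (34573664 to 34632308), was the most abundant member at 79.5 TPM in replicate 1 and 73.1 TPM in replicate 2 (mean 76.3 ± 4.47, SD, n = 2). Add2, on chromosome 6 (86028681 to 86124409), is the beta subunit and was at 25.5 and 26.2 TPM (mean 25.9 ± 0.509, SD, n = 2). The gamma subunit gene Add3, not a member, was at 21.9 and 22.0 TPM. Add1 exceeded Add2 3.12-fold in replicate 1 and 2.79-fold in replicate 2. Add2 exceeded Add3 by 1.17-fold and 1.19-fold, a small difference with a log2 mean of 0.24 and an SD of 0.02. That order held per length only: on expected counts, which are not divided by length, Add3 was ahead (log2 ratio -0.28 for Add2 over Add3).

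Dmtn, on chromosome 14 (70601263 to 70636048), codes for dematin, which bundles actin at the junctions. It was at 3.22 TPM in replicate 1 and 5.44 TPM in replicate 2 (mean 4.33 ± 1.57, SD, n = 2). Add2 was above it in both libraries, and so was Tmod3, the tropomodulin gene with the higher level here, at 28.8 and 26.7 TPM. By mean level the members ran Add1, Sptb, Epb41, Add2, Ank1, Dmtn, Sptbn1, Sptan1 and Ank3. The replicates of Dmtn overlapped those of Sptbn1, and those of Sptbn1 overlapped those of Sptan1, so these 3 had no order beyond their spread. The 6 other neighbours in that order did not overlap.

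Of 18 planned pairs of related genes, 17 are reported here, by the log2 ratio of their TPM. The counts that follow are therefore not a rate over all planned pairs. In each of the 17 the sign agreed between the replicates and the mean exceeded the SD. In 4 of the 17 one gene had under 20 expected counts in a library.

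The proteins that the mesh binds were read from lists chosen with earlier results of these data known. Among 7 genes of the band 3 and ankyrin complex, 6 were at 1 TPM or more in both replicates. Cd47, which codes for a membrane protein of the Rh complex, was at 50.5 and 47.6 TPM. Band 3 itself, Slc4a1, was at 2.88 and 4.15 TPM. Sptb exceeded it 24.2-fold in replicate 1 and 16.3-fold in replicate 2, and Ank1 exceeded it 3.98-fold and 3.76-fold. Among 16 junction and actin partners, 13 were at 1 TPM or more in both. Actb led at 370.3 and 380.9 TPM, followed by Tpm1, a tropomyosin gene, at 71.8 and 74.3 TPM. Gypc, the glycophorin that protein 4.1R binds, was at 22.6 TPM in both replicates, and Epb41 exceeded it 1.31-fold and 1.18-fold. Of the relatives of the members, Ank2, Add3 and Epb41l5 reached 1 TPM in both.

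The replicates were then set against each other gene by gene, with library-scaled counts (CPM) adjusted by TMM. This compares 1 library with 1 other of the same group and has no further replicate check. None of the 8 members with a mean count of 100 or more differed 2-fold, against 2.05% of the 9777 genes with that count. At 1.5-fold, 2 of the 8 differed, Sptan1 and Dmtn, against 7.84% of the same genes. Sptan1 was 1.64-fold higher in replicate 1 and Dmtn 1.73-fold higher in replicate 2. The remaining 6 lay between a log2 ratio of -0.18 for Epb41 and 0.33 for Ank1, with Sptb at -0.01. In the partner lists, 4 of the 7 band 3 and ankyrin genes differed 1.5-fold or more, and 1 of the 14 junction and actin genes with that count. The share over all genes is the same 7.84%, in either direction. Those partner genes were all higher in replicate 2 and, with the marker Hbb-bs, are named after their values were seen. Rhag was 2.55-fold higher, Hbb-bs 1.86-fold, Kel 1.85-fold, Rhd 1.80-fold, Epb42 1.66-fold and Slc4a1 1.56-fold. The 6 erythroid markers summed to 2249 TPM in replicate 1 and 3130 TPM in replicate 2, and 1 of the 6, Hbb-bs, differed 1.5-fold or more. Their part in the difference of Dmtn was not tested.

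**Figure D2:**
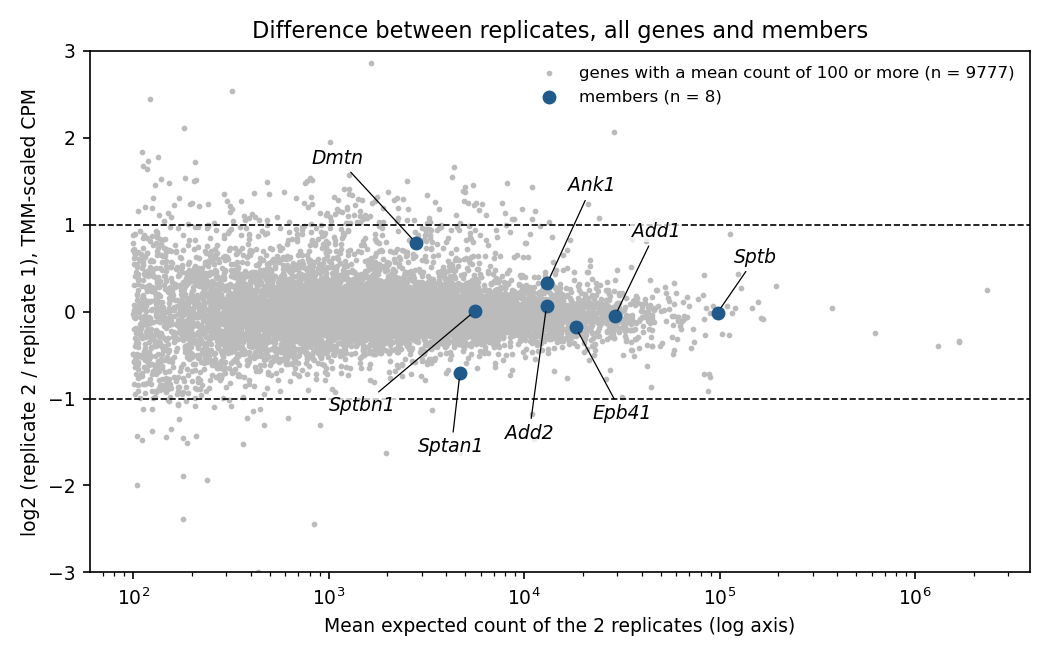
Log2 ratio of replicate 2 over replicate 1 against the mean expected count, for 9777 genes (grey) and the 8 members with a mean count of 100 or more (blue), with dashed lines at 2-fold. All 8 members lie between the lines, Sptan1 lowest and Dmtn highest, and 10 of the grey genes lie beyond the axis range of 3.

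Transcript shares came next. A share is the percentage of a gene's TPM that the deposited table gives to an annotated transcript, so it depends on which transcripts the annotation lists. Reads are shared out by a model, and a short transcript can take a large share of TPM on few counts. Of the 8 expressed members, 7 had more than 1 transcript in the tables. In 3 of these 7 (Sptb, Sptbn1 and Dmtn) the leading transcript held 50% or more in both replicates, against 66.9% of the 5845 protein-coding genes at 1 TPM with more than 1 transcript. In 1 of the 7, Epb41, the leading transcript is not annotated as protein coding, against 9.6% of such genes.

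**Figure D3:**
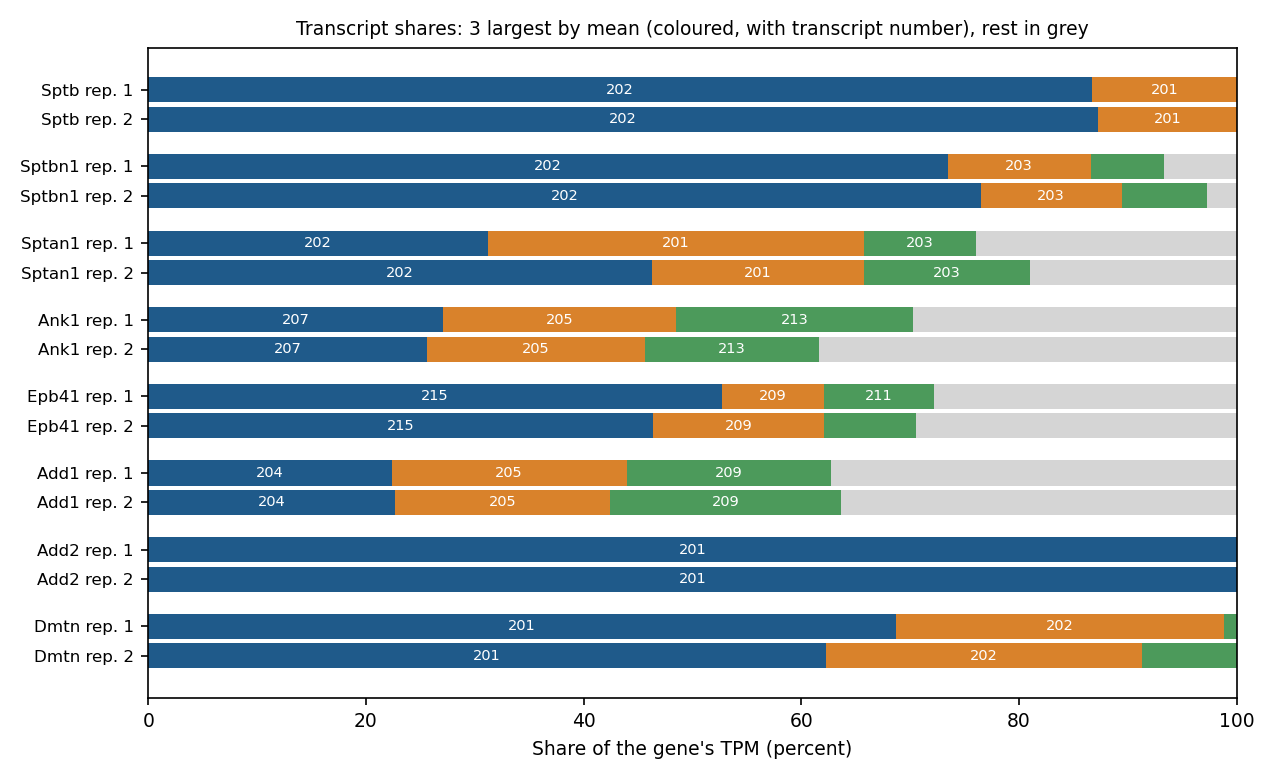
Stacked bars of transcript shares, in percent of the gene's TPM, for the 8 expressed members in each replicate, with the transcripts of largest mean share coloured and all others in grey. Sptb, Sptbn1 and Dmtn are led by 1 transcript, Epb41 by transcript 215 near 50%, and Add2 has a single transcript in the tables.

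For the beta spectrins the leading transcripts had opposite ends. Sptb-202 held 86.7% of Sptb in replicate 1 and 87.2% in replicate 2 (mean 87.0 ± 0.368%, SD, n = 2), with 97580 and 65819 expected counts. It codes for 2137 codons, and Sptb-201, which held 13.3% and 12.8%, codes for 2329. Both open at the same start codon and share 28 coding exons, so they differ at the C-terminal end. The short end is the form known from red cells, and the long end, known from muscle and brain, carries a PH domain. For Sptbn1 the longer form led: Sptbn1-202, with 2363 codons, held 73.5% and 76.5%. Sptbn1-203, with 2154 codons, held 13.1% and 13.0%, and it differs at both ends. The SD over replicates was at most 2.13 percentage points for each of these 4 shares.

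The annotated starts of these transcripts also differed. Sptb-202 begins 524 bases downstream of Sptb-201. Sptbn1-202 begins 21515 bases upstream of Sptbn1-203. RefSeq promoter windows (GRCm38.p6, 250 bases before to 50 bases after a start) were found for 6 members, 9 windows in all. They were searched on both strands for GATAA, a core of the site that GATA factors bind, and for CACCC, a core of the site that KLF factors bind. These windows miss the annotated starts of some transcripts that were given counts. The window of Sptb is that of Sptb-201, with 13.3% and 12.8% of the TPM, and no transcript of the tables begins in that of Add2. A GATAA was in 1 of the 9 windows, against 25.4% of 32851 windows of all genes, and a CACCC in 5 of the 9, against 57.5%. The window with GATAA was that of Sptbn1-202, shown here because that transcript was given most of the Sptbn1 TPM. A share does not measure where RNA begins. Sptbn1-201 is annotated from further upstream with the same first coding base, and it was given 0 counts in both replicates. It has 36 exons and 8461 bases, against 35 exons and 8238 bases for Sptbn1-202, with the same coding length. The 250 bases printed below lie between the annotated starts of both, and they end in a run of mostly c and t followed by cag. Whether they are a promoter or part of an intron of a longer transcript was not tested. Nor was it tested whether Sptbn1 RNA begins at the start of Sptbn1-202. Capitals mark the motifs. The GATAA lies on the opposite strand as TTATC and overlaps a CACCC by 1 base.
Sptbn1-202, the 250 bases before the start, chr11:30219773-30220022, minus strand: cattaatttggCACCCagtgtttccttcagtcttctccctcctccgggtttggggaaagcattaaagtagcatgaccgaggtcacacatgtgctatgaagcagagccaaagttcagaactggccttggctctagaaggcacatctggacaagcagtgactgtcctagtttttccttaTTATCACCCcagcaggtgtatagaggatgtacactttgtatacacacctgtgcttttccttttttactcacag
A match is a description of these letters and not a measured binding site.

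Ank1 TPM was given to transcripts with several annotated starts, and where the RNA begins was not measured. The 3 transcripts that begin between 23035099 and 23035231 of chromosome 8, led by Ank1-205 and Ank1-213, held 43.5% of the TPM in replicate 1 and 36.9% in replicate 2. The 3 that begin further downstream, between 23058259 and 23058311, led by Ank1-207, held 33.8% and 30.0%. On counts the groups were nearer, 46.5% and 43.9% against 44.7% and 44.3%. In the annotation, all 5 spanning transcripts that begin between 23058259 and 23058525 hold the 24-base exon, and all 3 of the group led by Ank1-205 skip it. A further 3 spanning transcripts begin upstream of both groups, of which 2 hold the exon and 1 skips it, and together they held 0.58% of Ank1 TPM in replicate 1 and 0.32% in replicate 2. That share is poorly fixed: Ank1-209, which holds the exon, was given 0 counts, with a posterior SD of 528 and 354 counts. In posterior mean TPM its mean share was 2.9%, and that of Ank1-207 went from 26.35% to 22.89%. Inclusion of the exon among protein-coding transcripts was 41.7% in replicate 1 and 41.3% in replicate 2. It was 43.7% and 45.2% over all transcripts. On counts it was 47.3% and 47.0% over protein-coding transcripts, and 49.3% and 50.9% over all. These settings lay further apart than the replicates. In the leading transcripts the exon and the start go together, so these shares were not measured apart.

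Another group of Ank1 starts lies inside the gene. The leading transcript there, Ank1-201, has 4 exons and 156 codons, against 1878 for Ank1-207, and such short ankyrins are known from the sarcoplasmic reticulum of striated muscle. It held 9.54% of Ank1 TPM in replicate 1 and 20.4% in replicate 2, on 185 and 368 expected counts, which were 1.30% and 3.05% of the Ank1 counts. The muscle markers Myh1 and Ckm had 0 counts in both libraries, and Acta1 had 0 and 2. No long transcript of Ank3 could be read: 4 of its 44 transcripts had any counts, all in replicate 2.

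Epb41 is known to make a long and a short protein. The long one begins at an upstream start codon, and the short one, known from mature red cells, begins at a downstream codon when the upstream one is spliced out. Epb41-215 held 52.7% of Epb41 TPM in replicate 1 and 46.4% in replicate 2 (mean 49.6 ± 4.44%, SD, n = 2). On counts it held 67.9% and 62.6%, from 15583 and 8578 expected counts, with a posterior SD in the deposited table of 239.7 and 195.5 counts. It has 18 exons, starts at the most upstream first exon, and leaves out the 17-base segment with the upstream start codon. It also leaves out the 57-, 42- and 63-base exons. Transcripts from that upstream start held 62.8% in replicate 1 and 62.9% in replicate 2, against 5.12% and 6.69% for those from the start of Epb41-201.

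GENCODE M21 gives Epb41-215 no coding region. A search of its sequence found an open reading frame of 594 codons from an ATG in its exon 3. That ATG lies in frame and 210 codons after the start of Epb41-201, a form of 858 codons, and both frames end at the same stop. From that ATG the frame is 54 codons shorter than in Epb41-201, which equals the 162 bases of the 3 exons left out.

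**Figure D4:**
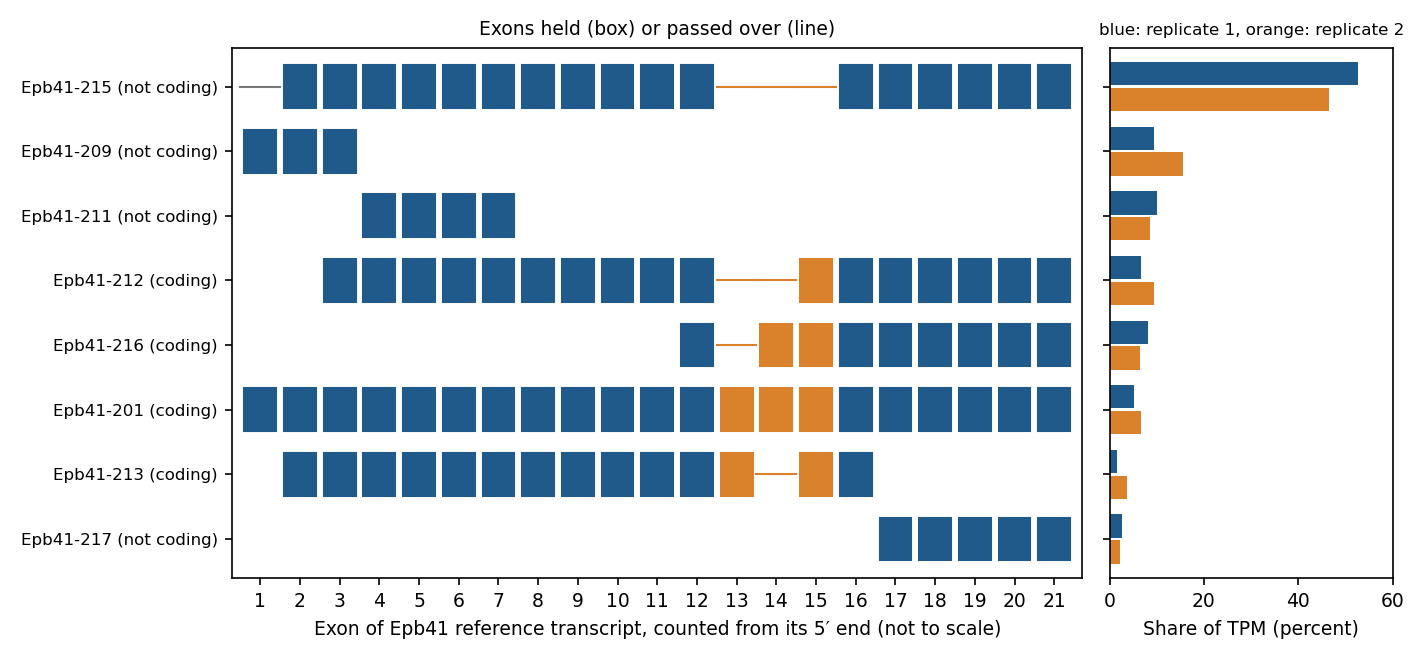
Left, the Epb41 transcripts with a mean share of 1% or more against the 21 exons of Epb41-201, the coding transcript of largest share with a complete 5′ end, in order, a box where a transcript overlaps the exon, a line where it passes over it, and orange for the 57-, 42- and 63-base exons (13 to 15 in this order). Right, the share of TPM in percent in each replicate. Epb41-215, which passes over all 3 and starts upstream of Epb41-201, has the largest share, at 52.7% in replicate 1 and 46.4% in replicate 2.

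Inclusion of the Epb41 exons turned on whether Epb41-215 was counted. Among protein-coding transcripts that span it, the 63-base exon was held by 96.1% of TPM in replicate 1 and 99.6% in replicate 2 (mean 97.8 ± 2.50%, SD, n = 2). Among all transcripts that span it, the share was 30.0% and 36.8% (mean 33.4 ± 4.81%). The 42-base exon went from 58.4% and 48.4% among protein-coding transcripts to 18.3% and 17.9% among all. The 57-base exon went from 33.9% and 38.4% to 10.6% and 14.2%. In each case the values with and without the transcripts not annotated as coding lay further apart than the replicates. Among protein-coding transcripts the 63-base exon was the most included of the 3 in both replicates, and the 42-base exon was above the 57-base exon. Among all transcripts that order was the same.

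The 17-base segment showed the same dependence. It was in 98.2% of TPM in replicate 1 and 93.0% in replicate 2 among protein-coding transcripts with that exon, and in 24.1% and 35.6% among all. This segment was chosen after the values of Epb41-215 were seen. The 2 transcripts that lack the segment were Epb41-215 and the coding Epb41-204, which held 0.465% of Epb41 on average. The short transcripts Epb41-209 and Epb41-211 rest on few reads: Epb41-209 held 9.40% and 15.7% of TPM but 1.10% and 1.85% of counts, and Epb41-211 held 10.1% and 8.48% of TPM but 1.08% and 0.914% of counts.

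**Figure D5:**
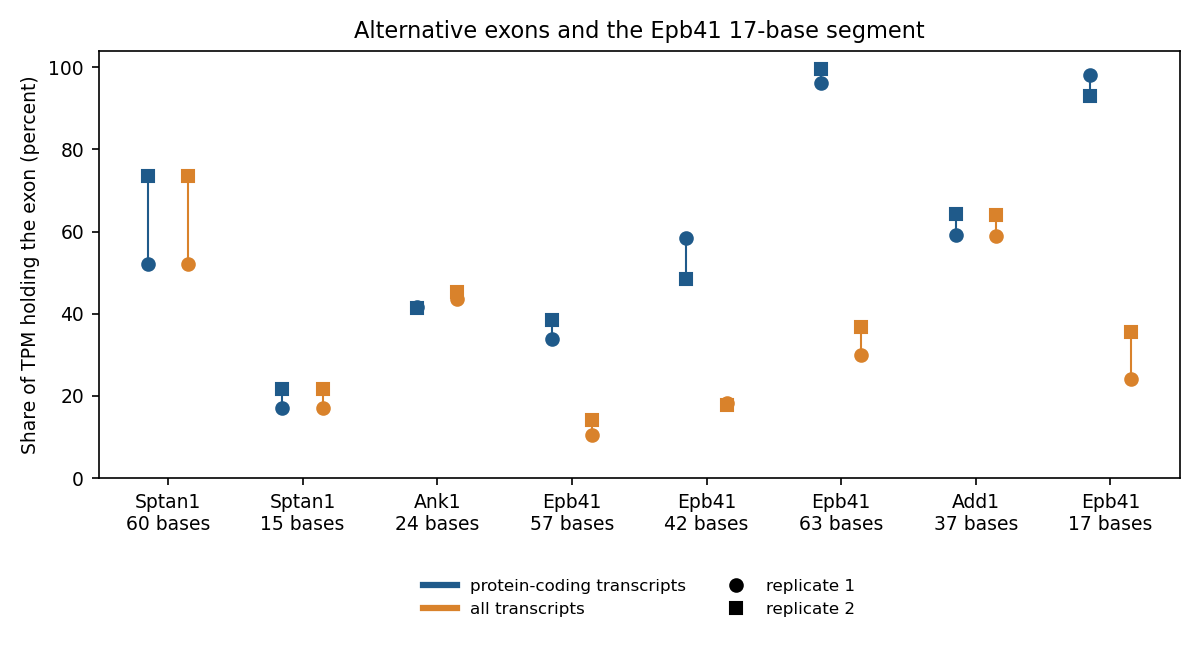
Percent of TPM holding each alternative exon or segment, for replicate 1 (circles) and replicate 2 (squares), over protein-coding transcripts (blue) or all transcripts (orange). The 4 Epb41 features fall when all transcripts are used, the 63-base exon from 96.1% and 99.6% to 30.0% and 36.8%, while the Add1 exon is at 59.1% and 64.3% over protein-coding and 58.9% and 64.1% over all transcripts.

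Add1 RNA was split over several transcripts. Add1-204, with 632 codons, held 22.4% in replicate 1 and 22.7% in replicate 2, and Add1-205, with 735 codons, held 21.6% and 19.7%. On counts they held 39.3% and 38.9% against 35.5% and 31.5%. The 37-base exon is in Add1-204 and not in Add1-205, and it was chosen after its values were seen, since its length changes the reading frame and the C-terminal end. It was held by 59.1% of spanning coding TPM in replicate 1 and 64.3% in replicate 2. The tail coded without that exon is known to carry the MARCKS-related domain through which adducin binds spectrin and actin. The retained-intron transcript Add1-209 took 18.8% and 21.3% of TPM on 4.30% and 4.61% of counts, and the short Add1-212 took 19.0% and 17.7% on 5.87% and 5.23%.

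In Sptan1 the leading transcript was not the same in the replicates. Sptan1-201 led in replicate 1 at 34.6% and was at 19.5% in replicate 2, while Sptan1-202 was at 31.2% and led in replicate 2 at 46.3%. They differ by the 60-base exon, held by 52.1% of TPM in replicate 1 and 73.5% in replicate 2 (mean 62.8 ± 15.1%, SD, n = 2). The 15-base exon was held by 17.0% and 21.6%. Dmtn-201 held 68.7% and 62.3% of Dmtn, and Dmtn-202, with 380 codons, held 30.2% and 29.0%. The length of Dmtn-201 differs between the tables and GENCODE M21, so its codons are not given and no exon of Dmtn is described. Add2 had the single transcript Add2-201 in the tables, with 725 codons, and no choice of start or exon could be read for it.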

How the data were processed

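A gene table and a transcript table, both deposited, were used for each library, on assembly mm10 with GENCODE M4 per the text lists deposited beside them. The aligner and the quantification program are not given in the sources used here, nor is the strand setting. The authors deposited expected counts, TPM and FPKM, as well as transcript shares in percent. Names and structures came from GENCODE M21 (GRCm38), which named 42462 of 43346 Ensembl genes. The 26345 other table rows held 18 and 5 counts and were left out. Structures were used where M4 and M21 lengths agreed within 50 bases.

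Expected counts were rounded for edgeR 4.0.16 (TMM, prior count 0.5) and DESeq2 1.42.0 size factors. The common biological coefficient of variation was 17.2%. On simulated counts for this comparison, 9778 genes were tested and all 200 genes changed 3-fold were found. The simulated variation was set below the measured 17.2%, and the changes were larger than the 2-fold threshold. That setting is easier than the data, so it checks the calculation only. Exon inclusion was tested on toy transcripts. No value was tested between groups, as there is 1 group. Members and lists were chosen with earlier results of these data known. All members were named, with the 2 most abundant genes of each partner list and every gene of a pair, except for items that are not reported here; of the transcripts, the 3 largest by mean share, those at 10% or more and those that decide an exon could be named. Alternatives were other units, filters, scalings, transcript sets and leaving out a replicate.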

Additional observations from a re-analysis of the deposited data

How the results depend on the processing

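The count of members at 1 TPM or more in both replicates was 8 with posterior mean TPM, FPKM, TPM scaled anew to nuclear coding genes alone, a threshold of 0.1 TPM and in each replicate alone, and 5 at a threshold of 5 TPM. The count of members 2-fold apart between replicates was 0 with TMM, DESeq2 size factors, centred TPM and a mean count of 10 or more. It was 1 (Ank3, 0 and 8 counts) with no filter on low counts, and 2 at 1.5-fold. The 17 pairs were also called with posterior mean TPM, FPKM, log2(TPM + 1) and expected counts not divided by length, where Add2 over Add3 reversed to -0.28. Mean inclusion of the Epb41 exons over all transcripts, against protein-coding ones, was 12.4% against 36.1% (57 bases), 18.1% against 53.4% (42 bases) and 33.4% against 97.8% (63 bases), and 29.9% against 95.6% for the 17-base segment. That alternative adds Epb41-215, which lacks all 4, and for the 17-base segment also Epb41-209, which holds it. On counts over all transcripts, an alternative chosen after seeing the data, the values were 13.2%, 17.5%, 30.3% and 17.2%. On counts over protein-coding transcripts the 57-base exon was at 42.7%, and the cause was not tested. Single-replicate values ran from 33.9% to 38.4%, 48.4% to 58.4%, 96.1% to 99.6% and 93.0% to 98.2% in the same order. Of 21 transcript shares, 13 moved by more than their SD on counts and 1 with posterior means. Ank3 had 0 and 8 counts, the 0 in the deeper library, and its mean level went from 0.035 to 0.25 TPM with posterior mean TPM.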
